A study of Homo sapiens with 4 samples.

Results

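FOXO1, FOXO3 and FOXO4 are forkhead transcription factors, and FBXO32, CCNG2, CDKN1B and HBP1 are genes that FOXO factors are known to switch on or that hold cells out of division. These 7 genes, of 20045 named genes on the arrays, were chosen from knowledge of the pathway and on the difference between the PDLIM2 and the mock arrays in these same data. That difference is therefore given as a description with its error and without a test, and it supports nothing about the choice. All 16 probes annotated to the 7 genes were taken.

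The cells were L591, an established line from a Hodgkin lymphoma. Mock cells received 40 µg of the empty plasmid pcDNA3, and PDLIM2 cells received the same amount of pcDNA3 carrying transcript variant 2 of PDLIM2, a PDZ and LIM domain protein that is a putative ubiquitin E3 ligase. Both groups also received 10 µg of the GFP plasmid pEGFP-N3 and were enriched for GFP-positive cells by sorting, and no untransfected sample is part of the comparison. The labels number the 2 Illumina bead arrays of a group 1 and 2 and do not say whether these came from separate transfections, and values are given below in that order. The spread between them may thus be technical.

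FOXO factors sit at the end of the PI3K and AKT pathway. Active AKT phosphorylates them and keeps them in the cytoplasm, and without that signal they enter the nucleus and turn on genes of cell cycle arrest, cell death and metabolism. Their activity is thus set mainly by location, which an RNA array does not show. FOXO1 is needed for B-cell development and for germinal centre B cells, and low FOXO1 is a known feature of classical Hodgkin lymphoma. Among the genes downstream, CDKN1B encodes p27, an inhibitor of cyclin-dependent kinases. CCNG2 encodes cyclin G2, an unusual cyclin linked to arrest, HBP1 is an HMG-box repressor of genes for entry into S phase, and FBXO32 encodes atrogin-1, a substrate receptor of an SCF ubiquitin ligase that was described as a FOXO target in mouse muscle.

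The promoters of 3 of the genes with lower values are printed here because FOXO factors bind a short forkhead motif. From RefSeq (GRCh38.p14), 10 start sites of 6 of the 7 genes were read, and FBXO32 was left out of this search. Each sequence is the 250 bases before a start site, 5′ to 3′ on the strand of the gene. Capitals mark the motif TAAACA, searched on both strands, and its longer form GTAAACA, which contains it. The HBP1 window lies at chr7:107168753-107169002 (plus strand), that of CDKN1B at chr12:12717118-12717367 (plus strand) and that of CCNG2 at chr4:77156957-77157206 (plus strand).
HBP1: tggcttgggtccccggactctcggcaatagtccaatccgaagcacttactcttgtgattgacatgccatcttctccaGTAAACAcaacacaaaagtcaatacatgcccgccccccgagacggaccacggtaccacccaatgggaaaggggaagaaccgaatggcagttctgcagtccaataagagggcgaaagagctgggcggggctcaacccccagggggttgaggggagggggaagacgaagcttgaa
CDKN1B: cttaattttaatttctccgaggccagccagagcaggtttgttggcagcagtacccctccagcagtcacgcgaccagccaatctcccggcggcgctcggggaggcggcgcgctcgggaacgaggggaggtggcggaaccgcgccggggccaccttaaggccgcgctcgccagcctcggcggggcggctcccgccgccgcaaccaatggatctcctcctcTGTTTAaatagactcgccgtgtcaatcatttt
CCNG2: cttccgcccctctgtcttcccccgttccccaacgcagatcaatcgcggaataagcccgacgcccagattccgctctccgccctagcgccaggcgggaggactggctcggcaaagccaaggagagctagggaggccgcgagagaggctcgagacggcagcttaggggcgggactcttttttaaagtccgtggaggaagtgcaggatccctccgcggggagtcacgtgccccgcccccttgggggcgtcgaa

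The HBP1 window held GTAAACA at positions -173 to -167 from the start site, and a second HBP1 start site in the table had neither form in its window. The CDKN1B window held TAAACA on the opposite strand at positions -32 to -27. The CCNG2 window had no match to these letters. Of the other windows, 1 of those of FOXO3 held TAAACA, and those of FOXO1 and FOXO4 did not. Over all 35116 windows of this length in the table, 11% held TAAACA and 2.98% held GTAAACA. A match describes the letters of the window and no binding site.

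Values are the log2 values that the authors deposited, 1 for each probe and array. The 4 arrays had nearly equal distributions, with medians of 6.006 to 6.007. A probe counted as tested when its mean over the 4 arrays lay above the median of all probes (5.99), which 23615 of 47230 complete probes did. For each gene the brightest tested probe stands for it, and 12417 genes had one. Each of the 7 genes had a brightest probe above the filter, between percentiles 81.0 and 93.6 of all probes. PDLIM2 itself had 2 dim probes, at percentiles 6.14 and 2.99, which differed by 0.31 and -0.29 log2 units. Whether they lie in the transfected sequence is not known, so they check nothing about the labels.

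Most Hodgkin and B-cell markers were bright in both groups, with exceptions, and most markers of other blood cells were dim. Of 17 Hodgkin and B-cell markers 14 were tested, with median levels of 10.97 to 11.30 log2 units on the 4 arrays. The MHC class II chaperone gene CD74 (14.16 to 14.28) and the B-cell receptor genes CD79B (9.11 to 9.36) and CD79A (11.57 to 11.92) were bright. TNFRSF8, which encodes CD30, lay between 6.44 and 7.05, and CCL17 (5.71 to 6.44), MS4A1 (5.90 to 6.24), PAX5 (5.59 to 5.77) and POU2AF1 (5.50 to 5.91) were dim, the last 2 below the filter. The largest differences in this list were those of CD80 (0.37, and 0.09 without mock array 2), TRAF1 (0.28) and CD79A (0.19, and 0.03 without PDLIM2 array 2). Of 11 T and NK cell markers 3 were tested, and of these CD2, a T-cell adhesion receptor, was bright on every array (11.59 to 12.17), while NKG7 and TRAT1 lay between 6.33 and 7.55, and the T-cell receptor complex genes CD3D, CD3E and CD3G between 5.55 and 6.01. Of 10 myeloid markers 5 were tested, with median levels of 6.25 to 6.72. The medians of the differences were 0.07, -0.04 and 0.02 log2 units for the 3 lists, and the largest differences among the tested myeloid markers were those of CD68 (-0.46, and -0.27 without PDLIM2 array 2), ITGAM (0.22) and CD14 (-0.10). The part of other cell types in the values below was not tested.

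The growth arrest genes HBP1, FBXO32, CCNG2 and CDKN1B, and the factor FOXO1, read lower in both PDLIM2 arrays than in either mock array. HBP1 and FBXO32 stood at 0.415 and 0.417 times their mock level, CCNG2 at 0.556, CDKN1B at 0.599 and FOXO1 at 0.655 times. FOXO3 and FOXO4 differed by -0.40 and -0.10 log2 units, with overlapping arrays. So 5 of the 7 genes were lower by at least 1.5-fold, where 1.38% of all tested genes were, and both PDLIM2 arrays lay below both mock arrays for the same 5 genes, where 12.3% of tested genes had that order. The members were chosen on this contrast, so nothing is read from these counts. The median difference of the 7 was -0.74 log2 units, and that of all tested genes 0.02. In these bulk samples fewer cells that express a gene and less RNA per cell cannot be told apart.

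**Figure D1:**
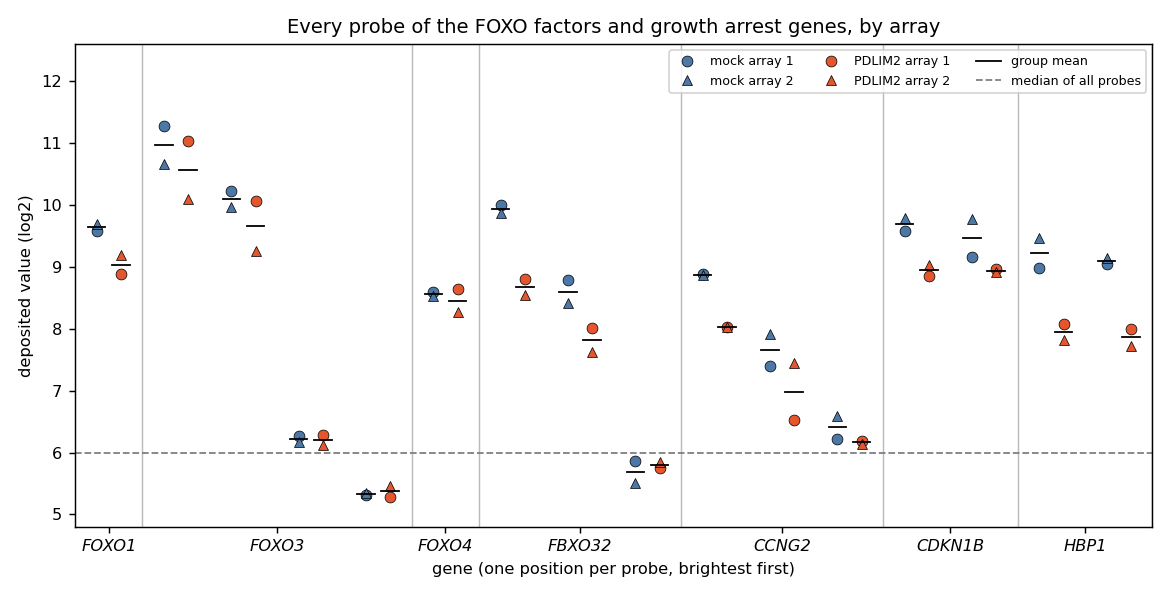
Deposited log2 value (vertical axis) of every probe of the 7 genes (horizontal axis, 1 position per probe, brightest probe of a gene first), with mock arrays in blue and PDLIM2 arrays in orange, circles for array 1, triangles for array 2 and a bar for each group mean. The dashed line is the median of all probes, and the orange points lie below the blue ones for FOXO1 and HBP1, for the bright probes of FBXO32 and CDKN1B and for the brightest of CCNG2, while those of FOXO3 and FOXO4 overlap.

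No tested probe passed the test between the groups. In limma with Benjamini-Hochberg adjustment over the 23615 tested probes, 0 probes (0%) were called lower and 0 (0%) higher at an adjusted p under 0.05. An unadjusted p under 0.05 was found for 665 probes (2.82%). That share is smaller than the threshold of 0.05 would give without any difference. The precision of all differences is limited by there being 2 arrays a group.

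**Figure D2:**
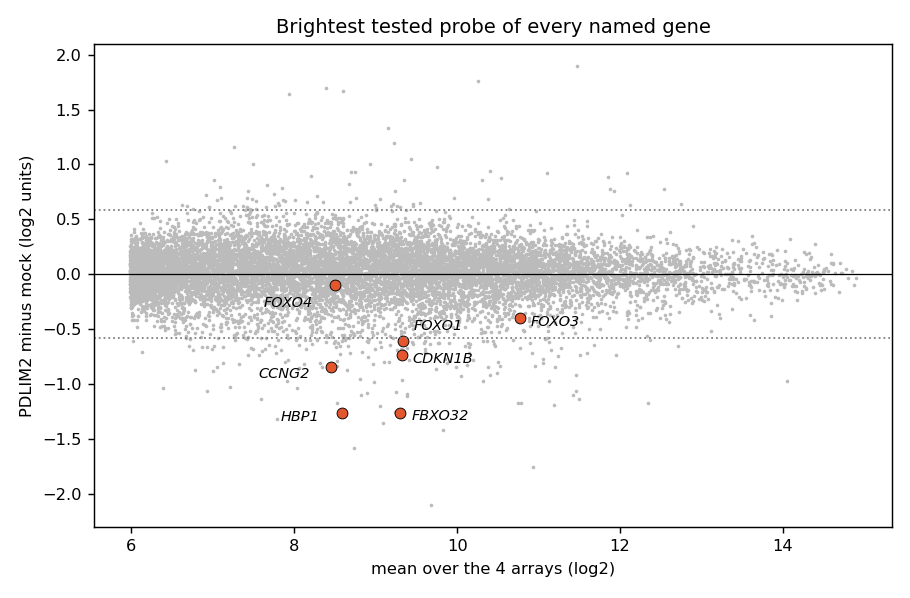
Difference PDLIM2 minus mock in log2 units (vertical axis) against the mean log2 value over the 4 arrays (horizontal axis) for the brightest tested probe of each of 12417 named genes, with the 7 genes in orange and dotted lines at a change of 1.5-fold. HBP1, FBXO32, CCNG2, CDKN1B and FOXO1 lie below the lower dotted line, and FOXO3 and FOXO4 lie above it.

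Among the factors, FOXO1 was the one whose groups did not overlap. Its single probe read 9.58 and 9.70 log2 units with the mock plasmid and 8.88 and 9.18 with PDLIM2. Both PDLIM2 values lay below both mock values, with a gap of 0.40 between the groups. The difference was -0.61 (SE 0.17), about as large as the 1.5-fold line, and it stayed between -0.76 and -0.46 with an array left out. It was smaller than 1.5-fold without mock array 2 (-0.55) and, at its smallest, without PDLIM2 array 1.

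FOXO3, the broadly expressed factor that is also the brightest of the family here, varied more between arrays of one group than between the groups. Its brightest probe read 11.27 and 10.67 with the mock plasmid and 11.04 and 10.09 with PDLIM2. In each group array 1 was the higher one, and the groups overlapped. The second probe, at 10.23 and 9.97 (mock) and 10.06 and 9.26 (PDLIM2), had the same order. Their differences were -0.40 (SE 0.32) and -0.45 (SE 0.26). The first was 0.07 without PDLIM2 array 2, -0.10 without mock array 1, -0.70 without mock array 2 and -0.88 without PDLIM2 array 1. Between arrays of the same number it was -0.23 for number 1 and -0.58 for number 2. The other 2 FOXO3 probes were dim, at 6.21 and 5.35 on average over the arrays, and differed by -0.02 and 0.05. FOXO3B is a near-identical copy of FOXO3, so what these probes measure is uncertain.

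FOXO4, another factor of the same family, gave no clear difference. It read 8.59 and 8.53 (mock) and 8.64 and 8.27 (PDLIM2). The PDLIM2 array 1 was the highest of all 4 and the PDLIM2 array 2 the lowest. The difference of -0.10 (SE 0.17) was 0.08 without PDLIM2 array 2 and -0.29 without PDLIM2 array 1. FOXO6, the remaining family member and not among the 7 genes, had 2 probes near the median of all probes, at 6.02 and 5.91 on average, with differences of 0.06 and 0.03.

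HBP1 and FBXO32 had the largest differences of the 7 genes, and both were also seen by a second probe. The brightest HBP1 probe read 8.97 and 9.46 with the mock plasmid and 8.07 and 7.82 with PDLIM2. The second read 9.04 and 9.15 (mock) and 8.003 and 7.72 (PDLIM2). On both probes the lower mock array stood well above the higher PDLIM2 array, with gaps of 0.90 and 1.03. The differences were -1.27 (SE 0.20) and -1.23 (SE 0.16). On the brightest probe it was -0.90 for the arrays numbered 1, -1.64 for the arrays numbered 2, and at its extremes -1.51 without mock array 1 and -1.03 without mock array 2.

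FBXO32 read 9.99 and 9.87 on its brightest probe with the mock plasmid and 8.80 and 8.55 with PDLIM2. The gap between the groups, 1.07, was the widest among the 16 probes. Its second probe, annotated to another transcript, read 8.78 and 8.42 against 8.01 and 7.62, again without overlap. The differences were -1.26 (SE 0.16) and -0.79 (SE 0.20), so the second probe showed a smaller step in the same direction. The dimmest probe, annotated to the same transcript as the brightest, lay below the filter with 5.86, 5.51, 5.76 and 5.85 on the 4 arrays, mock first, and its difference was 0.12 (SE 0.17). A probe that dim says little about the transcript. Averaged over all 3 probes, the FBXO32 difference was -0.64.

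The smallest spread within groups was that of CCNG2. Its brightest probe read 8.88 and 8.87 with the mock plasmid, and 8.03 in each PDLIM2 array. The difference of -0.85 (SE 0.14) stayed between -0.86 and -0.84 with an array left out. The second CCNG2 probe read 7.39 and 7.91 (mock) and 6.52 and 7.44 (PDLIM2). Here array 2 was higher in each group, and the PDLIM2 array 2 lay above the mock array 1. Its difference was -0.67 (SE 0.30), or -0.20 without PDLIM2 array 1 and -1.13 without PDLIM2 array 2. The dimmest probe, annotated to a cDNA clone, differed by -0.24 (SE 0.17), with a gap of 0.04 between the groups, and by -0.06 without mock array 2. Averaged over its 3 probes CCNG2 differed by -0.58.

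CDKN1B had 2 bright probes, and neither overlapped between the groups. The brighter one read 9.58 and 9.79 with the mock plasmid and 8.86 and 9.03 with PDLIM2. Its difference was -0.74 (SE 0.16) and lay between -0.84 and -0.64 when an array was left out. The other read 9.16 and 9.78 (mock) and 8.96 and 8.91 (PDLIM2). Its mock arrays lay further apart from each other (0.62) than the mock array 1 lay from the PDLIM2 arrays, and its difference of -0.53 (SE 0.21) was -0.22 without mock array 2.

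Across probes, the 14 tested probes of the 7 genes all had lower group means in the PDLIM2 arrays. The 2 probes below the filter had higher ones, by 0.05 (SE 0.15) and 0.12 (SE 0.17), each less than its SE. Counted by gene and brightest probe, a different unit, 5522 of all 12417 tested genes had a lower mean. The share by probe was not taken. Both PDLIM2 arrays lay below both mock arrays for 9 of the 14, against 12.8% of all tested probes, and 8 of the 14 were lower by at least 1.5-fold, against 1.64%. Within a gene the brighter probes showed the larger difference for FBXO32, CCNG2 and CDKN1B, nearly equal ones for HBP1, and for FOXO3 the 2 bright probes differed from the 2 dim ones. Probes of 1 gene share its RNA and are no replicates. The members were chosen on this contrast, so the probe counts are given as values only.

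**Figure D3:**
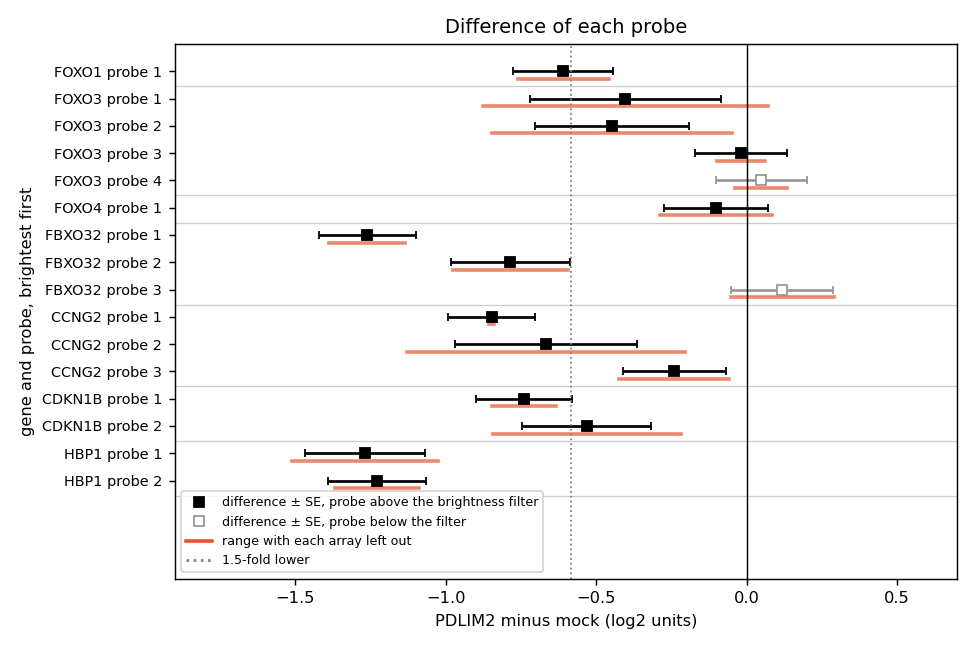
Difference PDLIM2 minus mock in log2 units (horizontal axis) for each of the 16 probes (vertical axis, brightest probe of a gene first), with squares and bars for the difference ± SE of the limma fit, open squares for probes below the brightness filter, and orange lines for the range with each array left out. The orange lines of both HBP1 probes, both bright FBXO32 probes and the brightest CCNG2 and CDKN1B probes stay left of the 1.5-fold line, and those of FOXO3 and FOXO4 reach or cross 0 on all but 1 probe.

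The profiles of the brightest probes over the 4 arrays were compared by distance. Each gene's profile was centred on its own mean, and the root mean square distance to the profiles of 12033 other named genes was taken in log2 units. It is a description over 4 arrays that share their groups. Profiles were not scaled, so the distance reflects the size of a group difference as well as the shape. FOXO1 and CDKN1B lay close together, at a distance of 0.086, and each ranked 6th among the profiles most like the other. CCNG2 lay 0.11 from CDKN1B and 0.17 from FOXO1. HBP1 and FBXO32 were 0.21 apart, and HBP1 was the 14th profile in the order around FBXO32. FOXO3 was at least 0.45 away from each of these 5 genes, and FOXO4 at least 0.35. The 5 genes were not all close to each other. FOXO1 lay 0.39 from FBXO32 and 0.41 from HBP1, farther than from FOXO4 (0.35). CDKN1B lay 0.32 from both FBXO32 and HBP1.

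By that distance, nearest to FOXO1 were HIVEP1 (0.042), a zinc finger transcription factor, EHD4 (0.047), an endocytic ATPase, and the homeobox gene IRX5 (0.049). IRX5 was also the gene nearest to CDKN1B (0.044), followed by the kinase gene PIM1 (0.072) and COQ10B (0.079). Nearest to CCNG2 were B9D2 (0.046), the zinc finger gene ZFX (0.048) and PTGER4 (0.052), a prostaglandin E2 receptor. Nearest to FBXO32 were the kinase gene RPS6KA5 (0.050), HYCC2 (0.091) and ZNFX1 (0.14). Nearest to HBP1 were the kinase gene MAK (0.074), the phosphatase gene DUSP10 (0.12) and TIPARP (0.12), a mono-ADP-ribosyltransferase.

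**Figure D4:**
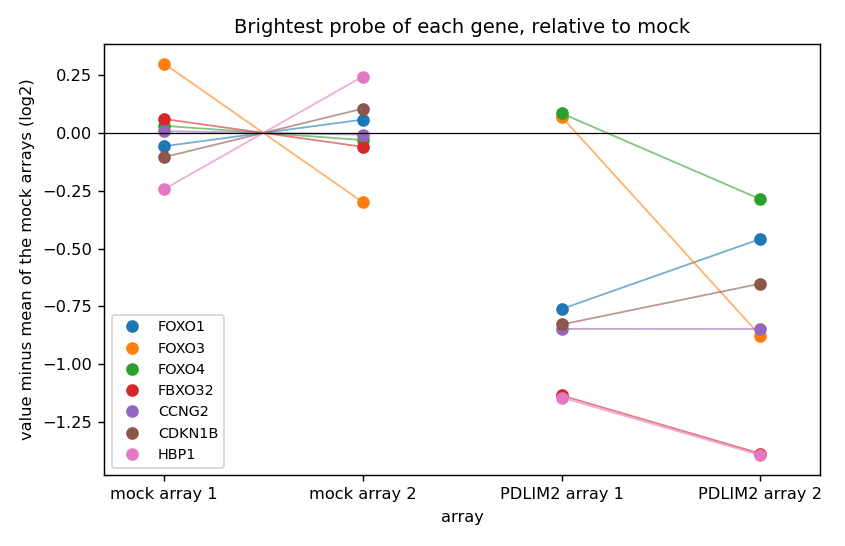
Value of each gene's brightest probe minus its mean over the mock arrays, in log2 units (vertical axis), on each of the 4 arrays (horizontal axis), with 1 colour per gene and lines joining the arrays of a group. HBP1 and FBXO32 nearly coincide in the PDLIM2 arrays, FOXO1 and CDKN1B run in parallel, and FOXO3 lies above 0 on array 1 and below 0 on array 2 of each group.

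Genes around the FOXO factors were described by 8 lists of related genes, with medians between -0.07 and 0.07 log2 units. Of all 12417 tested genes, 5522 had a lower value in the PDLIM2 arrays. Past 1.5-fold, 1.38% of all tested genes were lower and 0.644% higher, and each list is to be read beside these shares. In these lists no gene passed the test over all probes (limma, adjusted p of 0.9998 or more), and genes of these lists without a value are not analysed here. Upstream, 16 of 22 genes of the PI3K and AKT pathway were tested, 10 with lower and 6 with higher values, a median difference of -0.04 and none past 1.5-fold. PIK3CD, the catalytic subunit of PI3K typical of lymphocytes, read 10.45 and 10.42 (mock) and 10.70 and 11.16 (PDLIM2), a difference of 0.50 (SE 0.18), or 0.27 without PDLIM2 array 2. PIK3CB, another catalytic subunit, differed by -0.56 (SE 0.25) and AKT2 by -0.54 (SE 0.30), which became -0.18 and -0.03 without that array. AKT1 differed by -0.04.

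Regulators and partners of FOXO proteins had 16 higher and 10 lower values among 26 tested genes and a median of 0.07. Lower by 1.5-fold were 2 of them and higher 1, where 1.38% and 0.644% of all tested genes were. The deacetylase gene SIRT1 differed by -0.64 (SE 0.22) and the kinase gene DYRK1A by -0.62 (SE 0.22), while OTUB1, a deubiquitinase, differed by 0.59 (SE 0.29) with overlapping groups. Each of these was less than 1.5-fold without PDLIM2 array 2, at -0.32, -0.30 and 0.12. SKP2, the F-box protein that marks p27 and FOXO1 for degradation, read 10.47 and 10.73 (mock) and 10.75 and 11.12 (PDLIM2). Its difference of 0.34 (SE 0.18) had the opposite sign to those of CDKN1B and FOXO1, with a narrow gap between the groups, and was 0.16 without PDLIM2 array 2 and 0.21 without mock array 1. It was 0.52 without PDLIM2 array 1. These are RNA values while SKP2 acts on protein, and a link between them was not tested.

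Other known FOXO targets were mixed. Of 28 tested targets in cell death, stress and metabolism, 19 had lower and 9 higher values, with a median of -0.06. Lower by at least 1.5-fold were 3 of them, where 1.38% of all tested genes were. TSC22D3, a leucine zipper protein of the glucocorticoid response, read 11.38 and 12.24 (mock) and 10.27 and 9.83 (PDLIM2), a difference of -1.76 (SE 0.28). BCL6, a germinal centre repressor, read 11.44 and 11.43 against 10.91 and 10.72 (-0.62, SE 0.15). TXNIP, an arrestin-like inhibitor of thioredoxin, read 11.35 and 11.43 against 10.80 and 10.81 (-0.59, SE 0.15). These 3 kept their values within 1.5 times when any array was left out, but BCL6 (-0.53 without PDLIM2 array 2) and TXNIP (-0.55 without mock array 2) then fell short of a 1.5-fold difference. Of the FOXO targets of lymphocytes 5 of 11 were tested, 2 lower and 3 higher, with a median of 0.02. The chemokine receptor gene CXCR4 differed by -1.06 (SE 0.35), or by -0.43 without PDLIM2 array 2, and CCR7, BTLA and KLF2 differed by -0.15, 0.29 and 0.02.

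Genes of quiescence and restrained proliferation, other than the 7 members, had 14 lower and 11 higher values among 25 tested. Their median was -0.04, and 3 were lower by 1.5-fold, where 1.38% of all tested genes were. KLF6, a Krüppel-like factor, read 12.22 and 12.41 (mock) and 11.66 and 11.51 (PDLIM2), a difference of -0.73 (SE 0.16). CREBRF, a regulator of CREB3, differed by -1.59 (SE 0.48), but its PDLIM2 arrays read 8.84 and 7.04, and without PDLIM2 array 2 the difference was -0.68. BTG1, an antiproliferative gene, differed by -0.60 (SE 0.26), or -0.19 without that array. CDKN1A, which encodes p21 and is the close relative of CDKN1B, differed by -0.11 (SE 0.21), and RBL2, the pocket protein p130 of quiescent cells, by 0.06 (SE 0.21), both with overlapping groups.

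Genes that control the turnover and the targets of p27 were evenly split, with 11 lower and 11 higher values among 22 tested genes and a median of 0.00. CCNE1, the cyclin E gene whose kinase p27 inhibits, differed by 0.38 (SE 0.17), the importin gene KPNA2 by -0.51 (SE 0.23) and CCND2, a D-type cyclin, by 0.06. CCNE1 differed by 0.21 without mock array 2, and KPNA2 by -0.16 without PDLIM2 array 2. Other F-box substrate receptors, the relatives of FBXO32, had 15 lower and 8 higher values among 23 tested and a median of -0.07. FBXO33 was the single one past 1.5-fold lower (-0.64, SE 0.19), FBXO5, an inhibitor of the anaphase-promoting complex, differed by -0.39 and FBXO10 by 0.45. Without PDLIM2 array 2 FBXO33 was less than 1.5-fold lower (-0.40), and FBXO10 differed by 0.26. Proliferation genes had 12 lower and 13 higher values among 25 tested, a median of 0.00 and none past 1.5-fold in either direction. Of these RRM2 differed by -0.53, CDT1 by -0.47, MCM5 by 0.44 and the proliferation marker MKI67 by 0.08. Without PDLIM2 array 2 RRM2 differed by -0.22, MCM5 by 0.28 and MKI67 by -0.34.

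**Figure D5:**
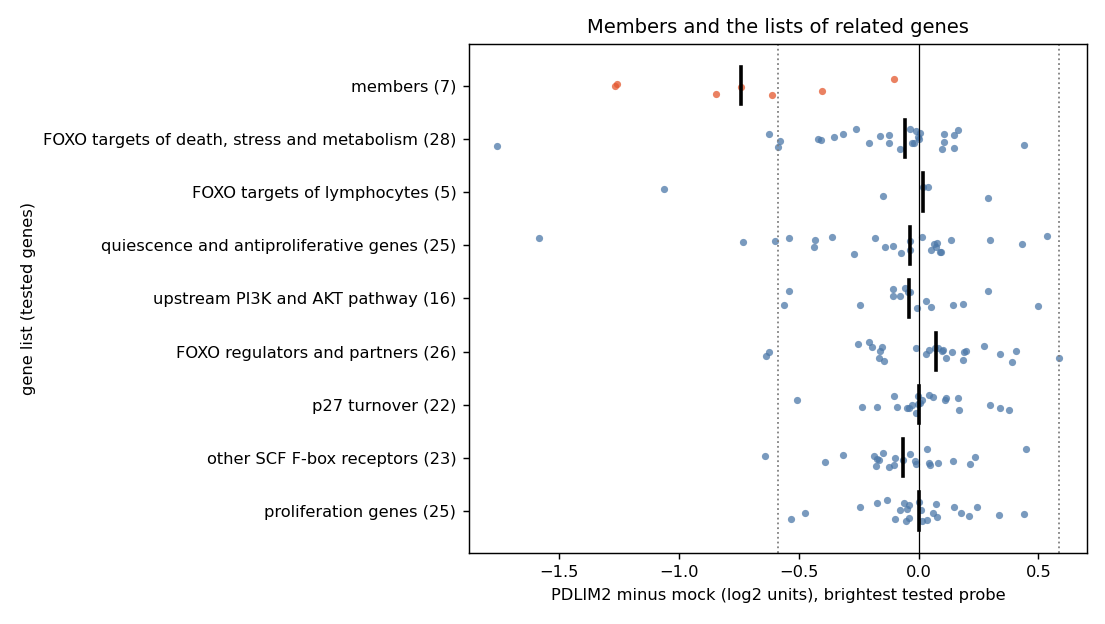
Difference PDLIM2 minus mock in log2 units (horizontal axis) of the brightest tested probe of each gene, for the 7 members (orange) and 8 lists of related genes (blue, number of tested genes in brackets), with black bars for medians and dotted lines at 1.5-fold. The members, chosen on this difference, have a median of -0.74, and the medians of the lists lie between -0.07 and 0.07.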

How the data were processed

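RNA of L591 cells was labelled with biotin and read on 4 Illumina bead arrays, per the labels. The values are on a log2 scale as the authors deposited them. How they corrected background and normalized was not stated in the labels. Of 47231 probes, 1 with an empty cell was left out. GEO's platform annotation gave 1 symbol for 30112 of the rest, and 8 probes with several symbols were left unnamed. Groups and array numbers come from the sample titles.

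Differences and SEs are from lmFit and eBayes in limma 3.58.1 (R 4.3.3) on all complete probes, and calls are from the same fit on the 23615 tested probes (2 residual degrees of freedom, prior 5.10), two-sided, at a threshold of 0.05 after Benjamini-Hochberg adjustment. The code of the fit was tried on simulated arrays with independent noise. These lack the correlation between same-numbered arrays described below, so they do not show how the fit does on the real arrays. The members and the gene lists were chosen with earlier results of these data known. Named from each list were the 3 genes with the largest difference in either direction and a few genes of known role, and beside each member past 1.5-fold the 3 nearest profiles. Alternatives were quantile normalization, median centring, an offset of 50, the filter, limma-trend, a robust prior, the replicate block, each array left out and the mean over a gene's probes.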

Additional observations from a re-analysis of the deposited data

How the results depend on the processing

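The median difference of the 7 genes (-0.74) lay between -0.85 and -0.70 when an array was left out and was -0.69 with the offset of 50 and -0.61 with all probes of a gene averaged. The count of genes lower by 1.5-fold was 5, and 4 with the offset (without FOXO1, -0.57) and with the mean over probes (without CCNG2, -0.58). Outside the fits with an array left out, the 7 genes kept their direction in all 35 combinations of gene and setting. When arrays were left out, FOXO3 lay between -0.88 and 0.070 and FOXO4 between -0.29 and 0.085, both turning direction without PDLIM2 array 2, and the cause was not tested. The count of 5 held with each array left out, but leaving out mock array 2 or PDLIM2 array 1 gave FOXO3 in place of FOXO1. The deposited values already shared nearly the same quartiles, so quantile normalization and median centring could change little. The replicate block could not change a difference, since each number has 1 array in each group. Averaging over probes could not change FOXO1 and FOXO4, which have 1 probe each. Many of the 35 combinations thus had little or no room to turn.

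Same-numbered arrays share only a number in the labels. Their deviations from the group means correlated across tested probes (r = 0.476, probes not being independent). The replicate block called 1 probe of the table, annotated to FOSB (named after its value was seen) and to none of the 7 genes, and left the differences as they were. The SEs given above are from the fit without this block, so they do not take the correlation into account. With an array left out, between 0 and 810 probes were called, the most when PDLIM2 array 1 and 45 when PDLIM2 array 2 was dropped, and 1 array then stands alone in its group. The counts of 0 called probes held with no filter, the filter at the 75th percentile, limma-trend and the robust prior. Signal over background is not known here, which limits what the dim probes of FOXO3, FBXO32 and CCNG2 can show.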

Other observations

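Several related genes with lower values in the PDLIM2 arrays had a PDLIM2 array 2 far below PDLIM2 array 1. CREBRF read 9.63 and 9.42 log2 units on mock arrays 1 and 2, against 8.84 and 7.04 on PDLIM2 arrays 1 and 2. CXCR4 read 11.96 and 12.03 against 11.56 and 10.30, and AKT2 read 6.82 and 6.80 against 6.78 and 5.75. Other related genes had a PDLIM2 array 2 far above PDLIM2 array 1. On these arrays OTUB1 read 8.84 and 9.76, and MKI67 read 7.35 and 8.19. With an array left out, the difference of 32 of the 39 genes named from the lists turned direction or moved by over 1.5 times, and the same held for 2 of the 7 members, FOXO3 and FOXO4. This measure is relative to the size of the difference, so genes near 0, such as KLF2 (0.02) and AKT1 (-0.04), meet it easily. The share of all tested genes that meet it was not taken. The 39 genes were picked for large differences or a known role and do not stand in for that share. The members were chosen with their differences known, so the 2 shares are given as values only, and nothing is read from them about the members.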
